A study of Ovis aries with 10 samples.

Results

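The 10 most abundant genes of the sheep pituitary gland were described in 10 ewes, 5 in the TR group and 5 in the CON group. Genes were ranked by the mean FPKM over the 10 libraries with equal weight for each, and ranks 1 to 10 of 17866 genes were taken. FPKM counts the sequenced fragments of a gene per kilobase of its exons and per 1000000 fragments mapped in that library, so the levels of different genes can be set side by side. The genes were selected on their mean FPKM, so levels and ranks are a description without a test, while the difference between the feeding groups had no part in the choice. All ewes were pregnant wild-type Hu sheep in late gestation, and the labels give day 115 of gestation. The TR ewes were on restricted feed and the CON ewes were fed normally. According to the methods of the study, the ewes were multiparous and carried several lambs, the restriction began on that day and ran until slaughter, and each ewe was kept in a single pen. The glands were taken at slaughter, so at a later day of gestation than the one in the labels. The design asks how the transcriptome of the pituitary gland differs between TR and CON ewes.

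The pituitary gland links the brain with the endocrine organs. Cells of its anterior lobe make growth hormone, prolactin, adrenocorticotropic hormone, thyroid stimulating hormone and the gonadotropins, and the posterior lobe releases hormones made in the hypothalamus. Endocrine cells that export a single protein hormone commonly devote a large part of their mRNA to it, and in a whole gland such mRNAs stand beside those of general functions such as translation. The 10 genes could not be sorted into such roles. All 17866 IDs are the word gene with a number, and 0 of them were found in the table of 35057 sheep genes of RefSeq (assembly ARS-UI_Ramb_v3.0). The genes are therefore given by ID alone, no sequence is shown, and the label pituitary could not be checked against hormone genes or against markers of blood or the posterior lobe. The libraries came from whole tissue, where fewer cells of a type and less RNA per cell cannot be told apart.

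The summed FPKM was 507494 to 699817 in the TR libraries and 650298 to 804506 in the CON libraries (exact two-sided permutation test, p = 0.071). Outside the 10 genes it was 334330 ± 18183 in the TR group and 381609 ± 43027 in the CON group (SD, 5 ewes each; exact two-sided permutation p = 0.024, adjusted p = 0.048 over these 2 sums). The median FPKM of the genes tested ran the other way, at 5.36 to 7.51 in the TR libraries and 3.70 to 6.05 in the CON libraries. CON2, CON3 and CON5 had the lowest medians (4.23, 3.70 and 4.19). FPKM hold no number of reads. By the most common ratio of low values, the depth relative to CON1 was 0.827 to 1.06 in the TR libraries and 0.908 to 1.35 in the CON libraries, with CON5 the highest. That ratio rested on 17 to 34 of 739 to 901 low values in each library, so it is a rough measure and no counting interval is given.

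The part of the library taken by the 10 genes together overlapped between the groups. Their share of the summed FPKM was 34.4, 49.3, 49.8, 49.1 and 47.2% in TR1 to TR5, and 45.3, 42.2, 54.4, 47.9 and 49.9% in CON1 to CON5. The lowest share was that of TR1 and the highest that of CON3, and the other 8 libraries lay between 42.2 and 49.9%. The mean was 46.0 ± 6.53% in the TR group and 47.9 ± 4.63% in the CON group (SD, n = 5 each), so the difference of -1.98 percentage points was smaller than either SD. Without TR1 the difference was 0.90 percentage points. Ranks 3 to 10 together took 4.76 ± 0.651% in the TR group and 5.59 ± 0.782% in the CON group. Outside the most abundant gene, the other 9 took 19.2 ± 3.67% of the remaining FPKM in the TR group and 16.8 ± 1.56% in the CON group.

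**Figure D1:**
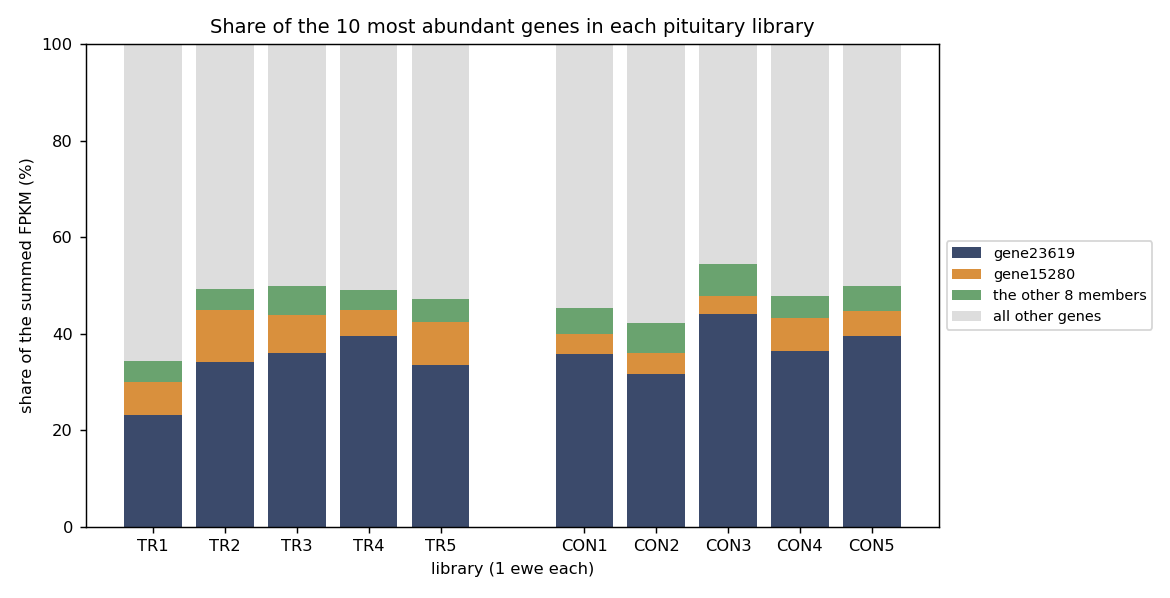
Share of the summed FPKM (%, vertical axis) of gene23619, gene15280, the other 8 of the 10 most abundant genes and all other genes in each library, TR ewes left and CON ewes right, 1 bar per ewe. The 10 genes together take 34.4% in TR1 and 54.4% in CON3, with every other library between these.

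The first and second genes stood apart from the rest in every ewe, and the order below them was loose. The mean over the 10 libraries was 243429 FPKM for gene23619 and 42941 FPKM for gene15280, and these genes held ranks 1 and 2 in all 10 libraries. Then came gene14414 with 6423 FPKM, gene17244 with 5850 FPKM, gene5022 with 5064 FPKM and gene5410 with 4277 FPKM. The last of the 10 were gene11275 with 3868 FPKM, gene18515 with 3730 FPKM, gene12623 with 3465 FPKM and gene14990 with 3041 FPKM. From rank 3 on, the ranges of neighbouring genes overlapped. For example, gene14414 lay above gene17244 in 6 of the 10 libraries, and gene5410 lay above gene11275 in 3 of 10 although its mean is higher. The closest neighbours were gene11275 and gene18515, with means that differ 1.04-fold and the same order in 9 of 10 libraries.

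Below the limit, gene5752 (rank 11) had a mean of 2809 FPKM and gene27726 (rank 12) 2716 FPKM, against 3041 FPKM for gene14990 at rank 10. The gap at the limit was narrow, as gene5752 lay above gene14990 in 3 of 10 libraries. Of the 10 genes, 7 were among the top 10 of every library. The exceptions were gene12623, which was there in 7 libraries, and gene5410 and gene14990, which were there in 6 each. While gene14990 stayed between ranks 10 and 12, gene5410 ran from rank 3 to rank 42 and gene12623 from rank 4 to rank 64. The choice of the genes did not hang on the averaging, since the 10 genes by the mean of the TR libraries, the mean of the CON libraries or the median of all libraries were the same 10.

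**Figure D2:**
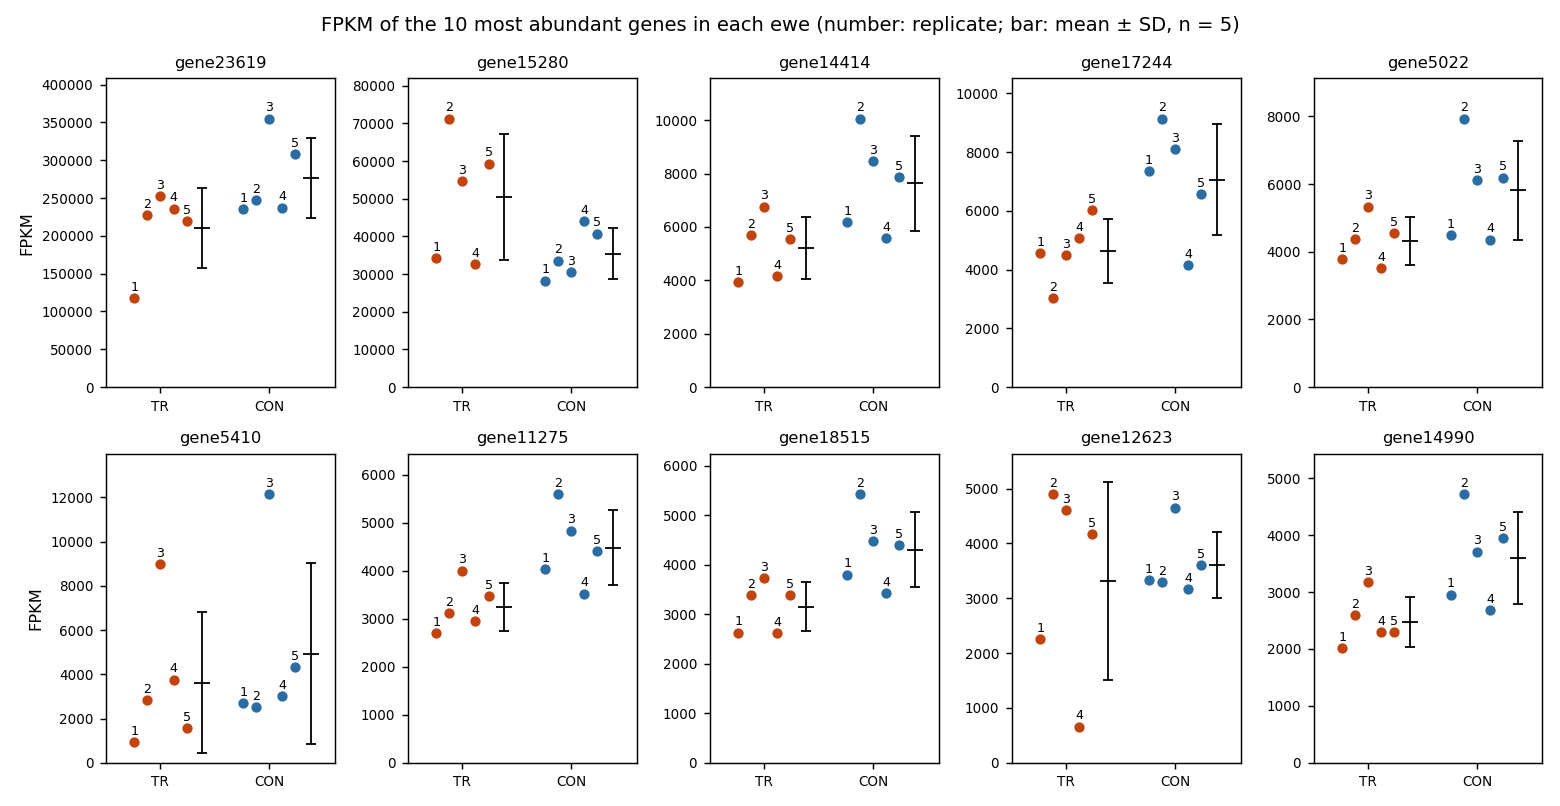
FPKM (vertical axis, from 0, linear, own scale per gene) of each of the 10 genes in the 5 TR ewes (left, orange) and 5 CON ewes (right, blue), with the replicate number at each point and the mean ± SD beside each group. For gene15280 the TR2, TR3 and TR5 points stand above every CON point, while in the panels of gene14414, gene5022, gene11275, gene18515 and gene14990 CON2 is the highest point.

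None of the 10 genes passed the threshold between the TR and CON groups. Of 14884 genes tested with limma on log2(FPKM + 0.1), 0 genes (0%) had an adjusted p under 0.05. This held with or without the fold limits of the study (above 2 or below 0.5), and the smallest limma adjusted p was 0.078. An exact permutation test of mean FPKM over the same genes gave 0 at an adjusted p under 0.05. The smallest p of that exact test is 0.0079, reached only where the groups do not overlap. After adjustment over all genes its 0 is therefore no separate support. An unadjusted p under 0.05 was held by 4924 genes (33.1%). Of the 10 genes, 5 were at that level, to be read against this share. They were gene14414, gene17244, gene11275, gene18515 and gene14990, all lower in the TR group. Of all genes tested, 9.2% stood at that level on the lower side and 23.9% on the higher side. Groups that did not overlap were found in 0 of the 10 genes, compared with 4.81% of the genes tested (1.46% lower and 3.35% higher in the TR group). The log2 fold change was below 0 in 9 of the 10 genes and in 34.8% of all genes tested. Its median was -0.45 over the 10 genes and 0.23 over all genes.

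The size of these differences moved with the scaling of the libraries. Over all genes, the median log2 fold change became 0.05 with median-of-ratios size factors, 0.46 with each library rescaled to a sum of 1000000, and 0.40 with a common sum outside the 10 genes. Of the genes with an unadjusted p under 0.05, 72.2% were higher in the TR group as deposited, 54.1% with size factors, 50.1% with quantile normalization, 90.2% with a sum of 1000000 and 87.0% with a common sum outside the 10 genes. Of the 10 genes, 5 lower stood at that level as deposited, 6 lower with size factors, 3 lower and 1 higher with a sum of 1000000, and 4 lower and 1 higher with the common sum. The lower side held 14.996% of all genes tested with size factors, 3.45% with a sum of 1000000 and 4.90% with the common sum. The higher gene was gene15280 in both, where the higher side held 4702 of 14884 genes tested with a sum of 1000000 and 4876 with the common sum. Quantile normalization left 0 of the 10 at that level, against 28.7% of all genes tested (14.3% on the lower side). It gives genes of the same rank the same value, and so it sets the log2 fold change of gene23619 and of gene15280, which held the same rank in every library, to 0 by construction. Without CON2, CON3 and CON5, the libraries with the lowest medians, only CON1 and CON4 were left in the CON group. These 3 were also the highest libraries of gene14414, gene5022, gene11275, gene18515 and gene14990. Leaving them out therefore shrinks the differences of these genes by itself. In that setting 0 of the 10 genes had an unadjusted p under 0.05, where the share of all genes tested was 4.92%. Without CON2 and CON5 the count was also 0, with 10.5% of all genes. Without CON2 alone 3 of the 10 were at that level and on the lower side, as were 5.84% of all genes, and without CON3 alone also 3, with 7.69% of all genes.

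**Figure D3:**
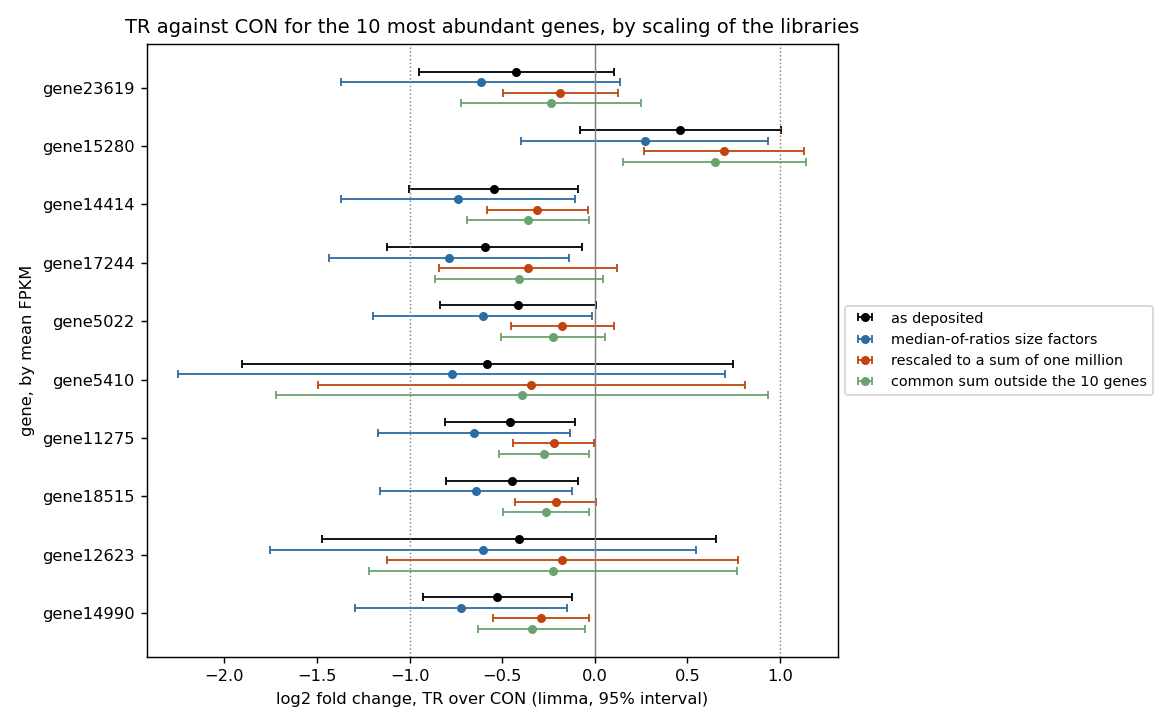
Log2 fold change of TR over CON (horizontal axis, point with its 95% interval from limma) for the 10 genes in order of mean FPKM, under 4 scalings of the libraries, with dotted lines at a fold change of 2 and of 0.5. Gene15280 is the only gene with points right of 0, and as deposited its interval runs from -0.08 to 1.01.

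The most abundant gene, gene23619, had a lower mean in the TR group, and TR1 carried a large part of that difference. It had 117475, 226881, 252538, 235950 and 219045 FPKM in TR1 to TR5, against 235386, 246808, 354840, 237266 and 308104 FPKM in CON1 to CON5. TR1, TR2 and TR5 lay below every CON ewe, TR3 and TR4 lay within the CON range, and CON3 was the highest. The TR ewes averaged 210378 ± 53408 FPKM, the CON ewes 276481 ± 53027 FPKM (SD, n = 5 each). The log2 fold change came to -0.42 ± 0.24 (SE, 95% interval -0.95 to 0.10, limma adjusted p = 0.22). Relative to the median of all genes it was -0.65 with all libraries. Without TR1 it was -0.23, or -0.42 relative to that median. As a share of the summed FPKM, gene23619 took 33.2 ± 6.11% in the TR group and 37.5 ± 4.63% in the CON group.

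The second gene, gene15280, was the only one of the 10 with a higher mean in the TR group. It had 34297, 71276, 54675, 32569 and 59336 FPKM in TR1 to TR5, against 28251, 33596, 30471, 44178 and 40758 FPKM in CON1 to CON5. TR2, TR3 and TR5 lay above every CON ewe, whereas TR1 and TR4 lay within the CON range. The TR ewes averaged 50431 ± 16667 FPKM, the CON ewes 35451 ± 6790 FPKM (SD, n = 5 each). The log2 fold change came to 0.46 ± 0.25 (SE, 95% interval -0.08 to 1.01, limma adjusted p = 0.20), or 1.38-fold. Relative to the median of all genes, the log2 fold change of gene15280 was 0.23. Its unadjusted limma p was 0.088 as deposited, 0.0042 with each library rescaled to a sum of 1000000 and 0.39 with size factors, and the adjusted p was 0.12 with that sum and 0.53 with size factors. Its share of the summed FPKM was 7.96 ± 2.04% in the TR group and 4.88 ± 1.19% in the CON group.

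A ratio of genes within a library is free of any factor that scales the whole library. The ratio of gene23619 to gene15280 was 3.43, 3.18, 4.62, 7.24 and 3.69 in TR1 to TR5, against 8.33, 7.35, 11.6, 5.37 and 7.56 in CON1 to CON5. TR1, TR2, TR3 and TR5 lay below every CON ewe, and TR4 lay within the CON range. The mean ratio was 4.43 ± 1.66 in the TR group and 8.05 ± 2.29 in the CON group (SD, n = 5 each). The pair was chosen with the values known, so the ratio is a description without a test. A library with little of gene23619 was not one with much of gene15280. Over the 10 libraries Pearson's r of their log2(FPKM + 0.1) was -0.04 (permutation p = 0.91, adjusted p = 0.91) and Spearman's rho was -0.27 (permutation p = 0.45, adjusted p = 0.52), and r was -0.23 without TR1 and CON3.

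**Figure D4:**
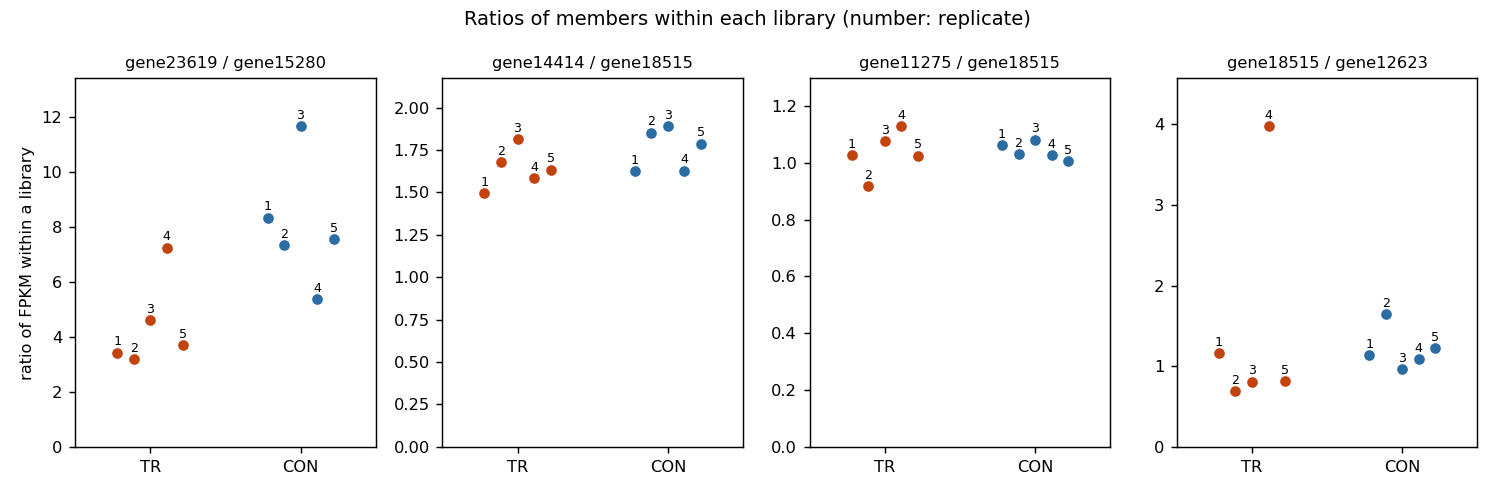
Ratio of the FPKM of pairs of the 10 genes within each library (vertical axis, from 0, no unit, own scale per pair), TR ewes left in orange and CON ewes right in blue, with the replicate number at each point. Gene11275 to gene18515 stays between 0.919 and 1.13, while gene18515 to gene12623 reaches 3.97 in TR4 and lies between 0.692 and 1.64 elsewhere.

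Among ranks 3 to 10, gene14414, gene5022, gene11275, gene18515 and gene14990 followed the same profile over the ewes. All 5 were highest in CON2 and had CON2, CON3 and CON5 as their 3 highest libraries, and the lowest was TR1 for 3 of them and TR4 for the other 2. Relative to the mean of each gene over the 10 libraries, they stood at 145 to 157% in CON2, 120.0 to 132% in CON3 and 114 to 130% in CON5. They stood at 61.3 to 74.6% in TR1, 64.7 to 76.5% in TR4 and 99.9 to 105% in TR3. TR2 stood at 80.5 to 90.8% and TR5 at 75.6 to 90.8%, against 88.8 to 105% in CON1 and 86.1 to 92.1% in CON4. The same 3 CON libraries had the lowest median FPKM of all genes tested. The part of that library difference in the levels of the 5 genes was not tested.

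Of these, gene14414 had 3939, 5689, 6763, 4158 and 5531 FPKM in TR1 to TR5, against 6187, 10053, 8450, 5594 and 7867 FPKM in CON1 to CON5. TR1, TR4 and TR5 lay below every CON ewe. The TR ewes averaged 5216 ± 1169 FPKM, the CON ewes 7630 ± 1791 FPKM (SD, n = 5 each), and the log2 fold change came to -0.55 ± 0.21 (SE, limma adjusted p = 0.12). The same profile stood one step lower in gene5022, with 3779, 4363, 5334, 3514 and 4555 FPKM in TR1 to TR5, against 4497, 7934, 6113, 4360 and 6190 FPKM in CON1 to CON5. TR1 and TR4 lay below every CON ewe, and TR2 (4363 FPKM) and CON4 (4360 FPKM) were nearly equal. The TR ewes averaged 4309 ± 712 FPKM of gene5022, the CON ewes 5819 ± 1464 FPKM, and the log2 fold change came to -0.41 (95% interval -0.83 to 0.01, limma adjusted p = 0.16).

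The closest pair, gene11275 and gene18515, came nearest to a separation of the groups. For gene11275 the FPKM were 2705, 3113, 4008, 2960 and 3471 in TR1 to TR5, against 4042, 5595, 4838, 3525 and 4419 in CON1 to CON5. For gene18515 they were 2634, 3388, 3727, 2625 and 3385 in TR1 to TR5, against 3803, 5426, 4474, 3435 and 4400 in CON1 to CON5. In both genes 4 of the 5 TR ewes lay below every CON ewe, and TR3 lay above CON4. The log2 fold change came to -0.46 ± 0.16 (SE, limma adjusted p = 0.12) for gene11275 and -0.45 ± 0.16 (SE, limma adjusted p = 0.12) for gene18515. The ratio of gene11275 to gene18515 averaged 1.03 ± 0.0772 in the TR group and 1.04 ± 0.0307 in the CON group (SD, n = 5 each), so the balance between the genes differed by less than the spread between ewes.

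The last gene by rank, gene14990, had 2019, 2600, 3179, 2299 and 2297 FPKM in TR1 to TR5, against 2957, 4717, 3710, 2679 and 3951 FPKM in CON1 to CON5. Again 4 of the 5 TR ewes lay below every CON ewe, and TR3 was the exception. The mean was 2479 ± 442 FPKM in TR ewes and, in CON ewes, 3603 ± 813 FPKM (SD, n = 5 each), and the log2 fold change came to -0.53 ± 0.18 (SE, limma adjusted p = 0.12). Without CON4, gene14414, gene11275, gene18515 and gene14990 had a limma adjusted p of 0.039 to 0.044, as part of 3748 of 14764 genes tested that passed at an adjusted p alone.

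Over the 10 libraries the 10 pairs among these 5 genes had a Pearson's r of 0.95 to 0.99 in log2(FPKM + 0.1) (permutation p of 1e-05 to 5e-05, where 1e-05 is the smallest that 100000 permutations can give, adjusted p of 0.00019 to 0.00022 over the 45 pairs of the 10 genes). Spearman's rho was 0.84 to 0.98 (permutation p of 2e-05 to 0.0037, adjusted p of 0.00067 to 0.014). The relation held without the 2 libraries farthest from the median of the first gene (r of 0.88 to 0.99) and after removing the group means (r of 0.91 to 0.99). All values of a library share 1 scale, which by itself makes genes vary together. The ratios within a library had a coefficient of variation of 5.34 to 9.06% over the 10 ewes, against 19.0 to 106% for the other 35 pairs. Genes that moved only with the shared scale would also keep steady ratios, so the ratios cannot tell how much of the relation is that scale. The other pairs include those of gene5410 and gene12623, the genes with the widest spread. The 5 genes were grouped after their values were seen, so the group has no test of its own. The profile was not theirs alone. For gene14414 and gene18515, the pair with the highest r, gene18515 came at place 3 among the 14883 other genes by r with gene14414, and gene5022 had gene14414 at place 82. The 5 genes ran against the bulk of the transcriptome, with a median r to all other genes of -0.50 to -0.48. This was not particular to them, as the median was -0.44 for gene23619, -0.35 for gene17244, -0.34 for gene5410 and -0.21 for gene12623. For gene15280 it was 0.09.

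**Figure D5:**
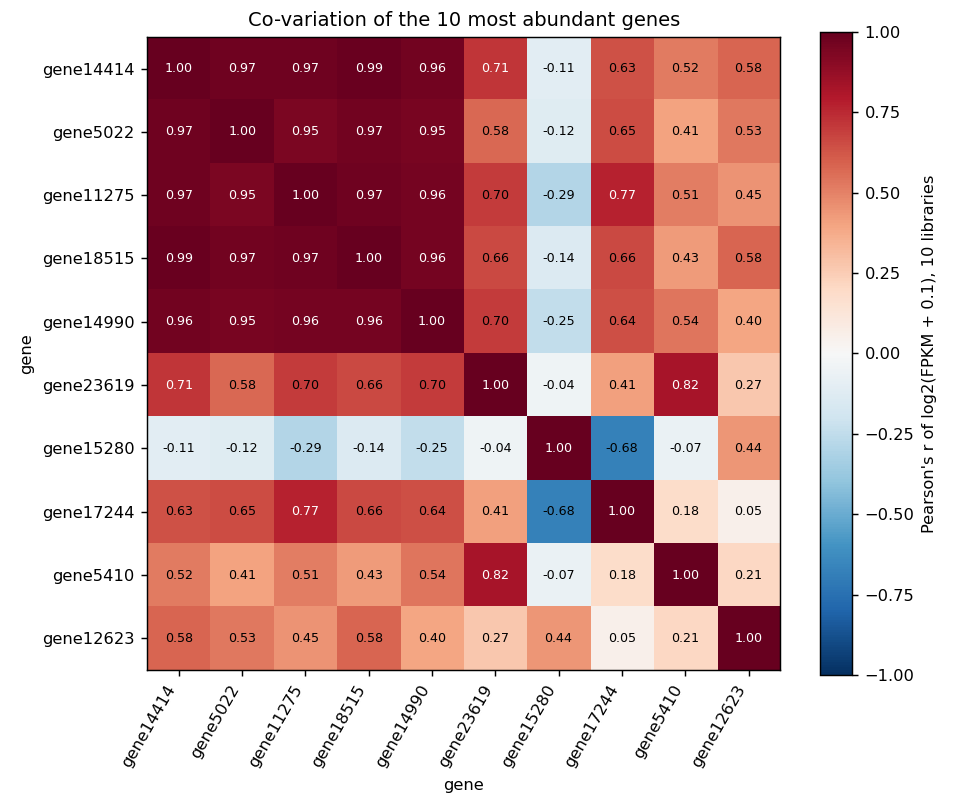
Pearson's r of log2(FPKM + 0.1) over the 10 libraries for each pair of the 10 genes (both axes, genes with the shared profile first), in colour and as a number. The block of gene14414, gene5022, gene11275, gene18515 and gene14990 has r of 0.95 to 0.99, and gene15280 and gene17244 have the lowest r of -0.68.

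Rank 4, gene17244, was lower in the TR group by its mean and followed its own order of ewes. It had 4571, 3026, 4487, 5073 and 6016 FPKM in TR1 to TR5, against 7349, 9139, 8111, 4161 and 6570 FPKM in CON1 to CON5. CON4 lay below 4 of the 5 TR ewes, and the other CON ewes lay above every TR ewe. On average the TR ewes had 4635 ± 1086 FPKM, the CON ewes 7066 ± 1881 FPKM (SD, n = 5 each), and the log2 fold change came to -0.60 ± 0.24 (SE, limma adjusted p = 0.13). Without CON4 the log2 fold change was -0.77 (adjusted p = 0.038 from limma), a setting in which 3748 of 14764 genes tested also had an adjusted p under 0.05. With gene11275 its r was 0.77 (permutation p = 0.0096, adjusted p = 0.036) and its rho 0.72 (permutation p = 0.024, adjusted p = 0.066), with r of 0.67 without TR2 and CON2. It ran opposite to gene15280, with r of -0.68 (permutation p = 0.034, adjusted p = 0.094) and rho of -0.70 (permutation p = 0.031, adjusted p = 0.081), which did not pass the adjustment over the 45 pairs. After removing the group means, r of gene17244 was 0.58 with gene11275 and -0.51 with gene15280. TR2 had the most of gene15280 and the least of gene17244.

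The widest differences between ewes of the same group were in gene5410. It had 953, 2822, 8977, 3763 and 1581 FPKM in TR1 to TR5, against 2701, 2504, 12131, 3020 and 4322 FPKM in CON1 to CON5. CON3 and TR3 stood above all other ewes, and the highest value was 12.7-fold above the lowest. Means were 3619 ± 3187 FPKM in TR ewes and, in CON ewes, 4936 ± 4084 FPKM (SD, n = 5 each), and the log2 fold change came to -0.58 ± 0.60 (SE, limma adjusted p = 0.49), within the spread between ewes. Without CON3 it was -0.18 and without TR3 it was -1.01. Within the groups the SD was 1.10 on the log2 scale, larger than that of 90.7% of the genes tested and of 98.1% of those with a mean of at least 100 FPKM.

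CON3 and TR3 were also the libraries with the most gene23619 in their groups, and TR1 had the least of both genes. The r of gene23619 with gene5410 was 0.82 (permutation p = 0.0039, adjusted p = 0.016 over the 45 pairs) and the rho was 0.84 (permutation p = 0.0037, adjusted p = 0.014). Without TR1 and CON3 r was 0.52, so the relation rests in part on those ewes. Among all 14883 other genes, gene5410 came at place 27 by r with gene23619. The gene most like gene23619 was gene3444, with r of 0.95 and a mean of 3.49 FPKM, picked as the highest of all genes and therefore without a test. With gene14414, gene23619 had an r of 0.71 (permutation p = 0.014, adjusted p = 0.049) and a rho of 0.79 (permutation p = 0.0085, adjusted p = 0.029), and r was 0.51 without TR1 and CON3. After removing the group means, r was 0.56 for gene23619 with gene14414 and 0.83 for gene23619 with gene5410. In all, 13 of the 45 pairs passed an adjusted p of 0.05 by r, all with r above 0, 14 by rho and 12 by both.

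For gene12623 the mean of the TR group was decided by TR4. It had 2260, 4895, 4609, 661 and 4166 FPKM in TR1 to TR5, against 3333, 3300, 4653, 3167 and 3603 FPKM in CON1 to CON5. TR4 had the lowest value of all ewes and TR2 the highest, while the CON ewes lay within a 1.47-fold range. The rank of gene12623 was 64 in TR4 and 4 to 17 in the other libraries. Means were 3318 ± 1806 FPKM in TR ewes and 3611 ± 603 FPKM in CON ewes (SD, n = 5 each). The log2 fold change came to -0.41 ± 0.48 (SE, limma adjusted p = 0.54), and it was 0.09 without TR4 (limma adjusted p = 0.80). In TR4 gene15280, gene5022 and gene18515 were also at their lowest of the TR group, and the other 6 of the 10 genes were not. The SD of the log2 values was 1.22 in the TR group and 0.22 in the CON group, compared with medians of 0.34 and 0.47 over all genes tested in the TR and CON groups.

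By their spread between ewes of the same group, most of the 10 genes were ordinary for their level. The SD within groups on the log2 scale was 0.24 for gene11275 and gene18515, 0.29 for gene14990, 0.30 for gene5022, 0.34 for gene14414, 0.37 for gene23619 and 0.40 for gene17244 and gene15280. The median was 0.44 over all genes tested and 0.29 over those with a mean of at least 100 FPKM. By this measure gene11275 and gene18515 were the steadiest of the 10, with 19.3 and 20.2% of the genes tested below them. Among genes with a mean of at least 100 FPKM, 36.5 and 37.9% lay below them. In that set 50.3 to 74.8% lay below gene14990, gene5022, gene14414, gene23619, gene17244 and gene15280, and 96.0% below gene12623.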

How the data were processed

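Pituitary RNA enriched with oligo(dT) was sequenced from 10 ewes, 1 library each. After trimming of adapters and poor reads, the authors aligned to sheep reference 4.0 with HiSAT2, ran StringTie and deposited 1 table of FPKM by gene for each library. The annotation release is not given in the sources used here, and genes carry numbered IDs. The tables were joined by gene ID without further scaling. The planned marker genes of pituitary and other cells were not tested, because 0 IDs could be paired with symbols.

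A gene was tested if 5 or more libraries reached 0.1 FPKM. TR was set against CON on log2(FPKM + 0.1) in limma 3.58.1 (R 4.3.3), with intensity trend, robust empirical Bayes and Benjamini-Hochberg adjustment over all genes. All 10 genes passed the filter. Fold changes on this scale understate those of low genes. Single values per library were compared with exact permutation tests over 252 assignments, and correlations with 100000 permutations (Python 3.11.15, NumPy 2.4.6, SciPy 1.17.1). Alternatives were the pseudocount, the filter, the scaling, the limma settings, an exact test, the replicate number as a block and libraries left out. The 10 genes, the genes named and the tests were chosen with earlier results of these data known. Named genes were the 10, ranks 11 and 12, and the gene most like gene23619. The ratios within libraries and the group of 5 genes with a shared profile were chosen after the values were seen. The DESeq2 results of the study were not used.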

Additional observations from a re-analysis of the deposited data

Results flagged for a closer look

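In 32 groups of 5 libraries (the 10 genes and 6 library measures in each feeding group), 4 had a library far from the rest, where chance gives about 1.6. TR1 had 117475 FPKM of gene23619, against 219045 to 252538 FPKM in the other TR libraries. In TR1 the 10 genes together took 34.4% of the summed FPKM, against 47.2 to 49.8% in the other TR libraries, and gene23619 is the main part of that sum, so these are not separate observations. CON3 had 12131 FPKM of gene5410, against 2504 to 4322 FPKM in the other CON libraries. The relative depth of CON5 was 1.35, where the other CON libraries had 0.908 to 1, from 18 of 747 low values.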

How the results depend on the processing

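The 0 genes past both thresholds over all genes became 2 with a pseudocount of 1, 1 with size factors, 1 with quantile normalization, 3 with a sum of 1000000, 4 with a common sum outside the 10 genes, 7 without trend and robust estimation, 3013 with array weights and 0 to 1868 with 1 library left out (1868 without CON4, 1 without CON1). None of the 10 genes passed both in any of these. Of their 240 values under the alternatives, 221 kept direction and side of the adjusted threshold (for gene23619 and gene15280, quantile normalization sets the value to 0). At an adjusted p alone, 7 of the 10 passed with array weights and 5 without CON4, settings in which 6976 of 14884 and 3748 of 14764 genes passed. The log2 fold change of gene12623 was 0.091 with quantile normalization, 0.095 without TR4, and -0.63 to -0.32 without any other single library. Of the 10 genes, the number at an unadjusted p was 0 with quantile normalization (28.7% of all genes), 0 without CON2, CON3 and CON5 (4.92%), 0 without the pair CON2 and CON5 (10.5%), and 3 to 6 when single libraries were omitted (19.0 to 44.9%), and these were not always the same genes. The share difference was -3.42 to 0.90 percentage points with 1 library left out.

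With the replicate number as a block, 1450 genes passed both thresholds, none of the 10 among them, and 4295 genes, with 5 of the 10, passed at an adjusted p alone. The numbers do not pair the ewes by the labels. The deviations of TR2 and CON2 from their groups had r of -0.01 (0.15 to 0.50 in the other 4 pairs), and 3 of 10 libraries correlated best with their own number. FPKM hold no depth, so no counting error is given.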
